A study of Arabidopsis thaliana with 3 samples.

Results

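Peaks of the DEK2-YFP fusion protein that lie in the short stretch of DNA between 2 neighbouring genes are described here. A peak belonged to the set when it was found in both immunoprecipitates (replicate 1 and replicate 2 overlapping by at least 50% of the shorter peak), when its replicate 1 summit lay outside every protein-coding gene, and when that summit was within 500 bp of a protein-coding gene on either side. The set held 1119 of the 10812 shared peaks (10.3%, 95% Wilson interval 9.79 to 10.9). Of the 3930 shared peaks whose summits lay outside genes and within 500 bp of any gene, these were 28.5% (27.1 to 29.9). Each of the 1119 peaks lay in a gap of its own, and 2181 genes flanked them.

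The samples were 14-day-old Arabidopsis thaliana seedlings of the dek2-1 mutant that carried a DEK2-YFP transgene driven by the DEK2 promoter (dek2-1, pDEK2::DEK2-YFP). DNA bound by the fusion was recovered with an antibody against GFP in 2 replicates, and each replicate has its own peak list. An input sample of the same plants without antibody has no values used here, and immunoprecipitates from plants without the tag were not analysed here, so each peak is a place above the background that the peak caller modelled. All plants carried both the mutation and the transgene. Whether the replicates came from separately grown plants is not stated, and differences between them may be technical.

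DEK proteins are abundant chromatin proteins that bind DNA and histones, and in animals DEK is known for effects on chromatin structure and transcription. The Arabidopsis genome is compact, and many neighbouring genes are separated by short gaps. Such a gap can hold the promoters of both genes (a divergent pair), the ends of both (a convergent pair), or the end of one gene and the promoter of the next (a tandem pair). The gene table used here gives no strand, so divergent, convergent and tandem pairs were not told apart, and no statement below refers to a promoter or a gene end. Gene identities and spacings are those of the table; coordinates are those of the TAIR10 peak lists, counted from 1. No sequence is printed because none was used.

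Members were ranked by the worse of their 2 ranks of fold enrichment, which is the authors' ratio of fragments at the summit to modelled background. By that order the first pair was AT1G63290 and AT1G63295, which are 52 bp apart. The peak on chromosome 1 from 23473441 to 23474335 was enriched 3.81-fold in replicate 1 and 3.79-fold in replicate 2, with −log10 q values of 58.0 and 25.9. Its replicate 1 summit lay 10 bp from AT1G63290 and 43 bp from AT1G63295, and the peak ran 482 bp into the first gene and 361 bp into the second. The replicate 2 summit lay 137 bp away, inside AT1G63290.

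The second pair joins PFK4 (AT5G61580), a phosphofructokinase of glycolysis, and AT5G61590, which encodes the transcription factor DEWAX, a repressor of wax synthesis in the plant cuticle. These genes are 87 bp apart, and the peak on chromosome 5 from 24763534 to 24764712 had 3.51 in replicate 1 and 3.78 in replicate 2. It covered the whole gap and parts of both genes, and its replicate 2 summit lay 100 bp from the replicate 1 summit, inside PFK4. The third lies between AT1G76170 and the dehydrin gene ERD14 (AT1G76180), whose product protects cells against water loss. It was the widest of the best 12 at 1889 bp on chromosome 1 from 28586143 to 28588031, with 3.52 and 3.34. Both summits lay in the gap of 244 bp, 73 bp apart.

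The fourth pair was HMA3 (AT4G30120), a transporter of heavy metals into the vacuole, and AT4G30130. Its gap of 826 bp was the longest among the best 12. The peak on chromosome 4 from 14733840 to 14735074 had 3.302 and 3.47, its replicate 1 summit lay 499 bp from HMA3 and 328 bp from AT4G30130, and it did not reach into HMA3. The replicate 2 summit, 15 bp away, lay 514 bp from HMA3 and so just beyond the distance the rule allows. UGD1 (AT1G26570), an enzyme that makes precursors of cell wall sugars, and AT1G26580 are 173 bp apart and shared a peak (chromosome 1, 9184231 to 9184800) of 3.24 and 3.13. PMI2 (AT1G66840), needed for chloroplast movement in response to light, and AT1G66850 are 363 bp apart. Their peak on chromosome 1 from 24936190 to 24936814 had 3.25 and 3.11, with summits 15 bp apart and both nearer PMI2.

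The other 6 of the best 12 lay beside genes of varied kinds. RTFL15 (AT1G68825), which encodes a small signalling peptide of the DEVIL family, and AT1G68820 shared a peak (chromosome 1, 25868630 to 25869454) of 3.31 and 3.07. The peak between AT1G14200 and AT1G14205, on chromosome 1 from 4855104 to 4855890, had 3.12 in replicate 1 and 4.26 in replicate 2, the highest replicate 2 value of the set. BTR1L (AT5G04430), an RNA-binding protein named for its binding to a viral RNA, and AT5G04420 shared a peak (chromosome 5, 1249692 to 1250511) of 3.39 and 2.77. AT1G49590, which encodes the zinc-finger protein ZOP1, and AT1G49580 are 109 bp apart, and their peak (chromosome 1, 18354282 to 18354976) had 2.96 and 2.81. The protein kinase gene MHK (AT4G13020) and AT4G13010 had 2.96 and 3.28 on chromosome 4 from 7602521 to 7603177. The peak between AT3G18050 and AT3G18060, on chromosome 3 from 6182711 to 6183849, had 3.32 and 2.90. Of these 12 gaps, 8 also held the replicate 2 summit, and in the other 4 that summit lay inside 1 of the 2 genes.

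**Figure D1:**
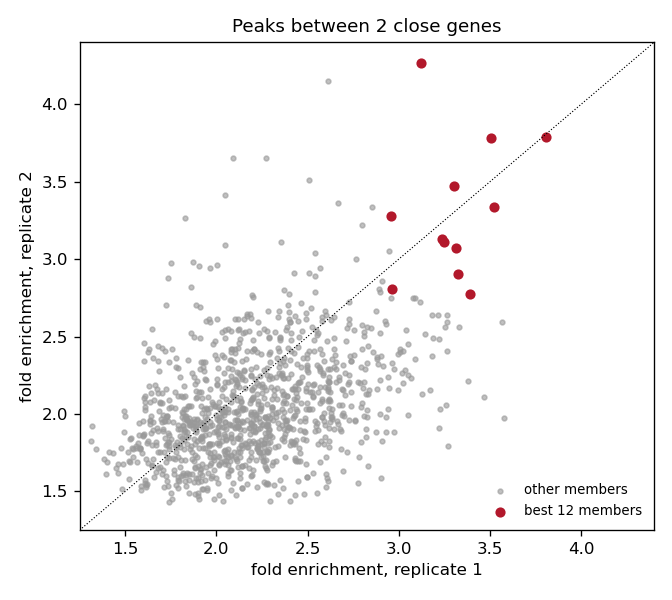
Fold enrichment of each of the 1119 peaks between 2 close genes in replicate 1 (horizontal axis) and replicate 2 (vertical axis), both linear ratios; red points are the best 12 and the dotted line marks equal values. The best 12 lie between 2.96 and 3.81 in replicate 1 and between 2.77 and 4.26 in replicate 2, while most members lie near 2 in both.

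Enrichment was modest across the set. The fold enrichment of members ran from 1.31 to 3.81 in replicate 1, with a median of 2.18 and quartiles of 1.92 and 2.46, and from 1.43 to 4.26 in replicate 2, with a median of 1.99 and quartiles of 1.81 and 2.26. Across the 1119 members the 2 values had a Spearman correlation of 0.401 and a Pearson correlation of 0.413 on the log2 scale, given as a description, since members of 1 genome are not independent. The pileup and background that the fold and p-value imply had medians of 158.4 fragments over 69.0 in replicate 1 (on the scaled pileup of that list) and 60.0 over 28.7 in replicate 2. Read counts per library were not used here, so these implied fragments are the only measure of depth.

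Members were about as enriched as other shared peaks outside genes. Their median folds were 2.18 in replicate 1 and 1.99 in replicate 2, against 2.175 and 2.03 for the 2811 shared peaks outside genes with only 1 gene within 500 bp. The 4459 with the summit inside a gene had 1.998 and 2.02. Members thus lay above peaks inside genes in replicate 1 and slightly below them in replicate 2, so the lists give no common order. In replicate 1, 25.3% of members (22.8 to 27.9) were among the strongest 10% of that list's peaks. Of the peaks near 1 gene 28.4% (26.7 to 30.0) were, and of all shared peaks 21.4% (20.6 to 22.1). In replicate 2 the shares were 12.2% (10.4 to 14.2), 11.9% (10.7 to 13.1) and 11.7% (11.1 to 12.3), so members stood near the share of all shared peaks there. The modelled background was somewhat higher at members, with medians of 69.0 and 28.7 in replicates 1 and 2, than at peaks near 1 gene, with 63.0 and 25.8; its part in the folds was not tested.

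To relate the peaks to gene spacing, all 12729 neighbouring pairs of protein-coding genes up to 1000 bp apart were taken as the background, after overlapping genes had been merged. A member lay between 1119 of these close pairs, or 8.79% (8.31 to 9.30). From the replicate 1 list alone, 21.1% of the close pairs held a summit in that position, and from the replicate 2 list alone 9.89%.

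How often a close pair carried a member depended on the spacing. Of 4851 pairs 1 to 200 bp apart, 281 did (5.79%, 5.17 to 6.49). Of 2746 pairs 201 to 400 bp apart, 428 did (15.6%, 14.3 to 17.0), and of 2044 pairs 401 to 600 bp apart, 300 did (14.7%, 13.2 to 16.3). The share was 5.50% (4.51 to 6.70) at 601 to 800 bp and 1.27% (0.806 to 2.00) at 801 to 1000 bp, where the rule itself leaves little of the gap within 500 bp of both genes. With summits anywhere in the gap, which drops that limit, the shares were 5.79%, 15.6%, 17.2%, 18.2% and 19.9% in order of spacing. Under the rule, from replicate 1 alone the shares were 17.7%, 35.0%, 32.4%, 10.5% and 2.40% in order of spacing, and from replicate 2 alone 5.63%, 16.9%, 18.2%, 7.05% and 2.33%.

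Counted per length of DNA instead, the shortest gaps were the densest. Gaps of 1 to 200 bp held 0.644 shared summits per kb and gaps of 201 to 400 bp held 0.533, against 0.326 per kb of the positions within reach of both genes at 401 to 600 bp and 0.182 at 601 to 800 bp. In gaps of over 500 bp the positions within reach are only those towards the middle. Over the whole gap the densities were 0.346 at 401 to 600 bp, 0.264 at 601 to 800 bp and 0.224 at 801 to 1000 bp. Replicate 1 alone had 1.97 and 1.20 per kb in the 2 shortest classes, and replicate 2 alone had 0.625 and 0.579.

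Peaks at the shortest gaps often had their summits just inside a gene. When summits up to 250 bp into either neighbouring gene were counted along with those anywhere in the gap, 19.3% of pairs 1 to 200 bp apart carried a shared summit (18.2 to 20.5), and 26.8% (25.1 to 28.5), 28.0% (26.1 to 30.0), 29.4% (27.3 to 31.6) and 29.2% (26.9 to 31.6) of the pairs in the wider classes. The stretch counted per pair grew with the spacing, so these shares are not for equal lengths of DNA. Per length of DNA, the gap itself was nonetheless denser than its gene sides where genes were close. At 1 to 200 bp, shared summits had 0.644 per kb in the gap and 0.271 per kb in the 250 bp of gene on either side, a ratio of 2.38. The ratio was 2.38 at 201 to 400 bp, 1.55 at 401 to 600 bp, 1.12 at 601 to 800 bp and 1.01 at 801 to 1000 bp. In the widest class the replicates disagreed, with 0.790 in replicate 1 and 1.35 in replicate 2.

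**Figure D2:**
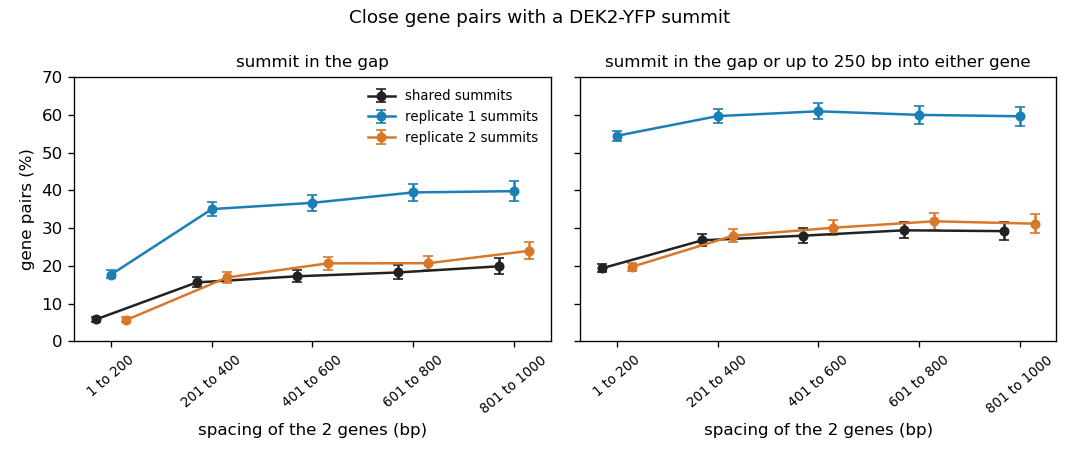
Percent of close gene pairs (vertical axis) that carry a summit, by spacing of the 2 genes in bp (horizontal axis), for shared peaks and for each replicate list alone; the left panel counts summits anywhere in the gap and the right panel adds summits up to 250 bp into either gene, and bars are 95% Wilson intervals. In both panels the shortest class, 1 to 200 bp, has the lowest share, and the right panel is nearly level beyond it, at 26.8% to 29.4% for shared peaks. The length of DNA counted per pair grows with the spacing in both panels.

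Gaps between close genes were then set beside wider gaps at the same distance from a gene. In close pairs only positions within 500 bp of both genes were counted. In gaps of over 500 bp this leaves out DNA next to the genes, so the shorter gaps weigh more in these densities. In the 100 bp next to a gene, close pairs had 0.527 shared summits per kb (exact Poisson interval 0.489 to 0.568) and gaps of over 1000 bp had 0.363 (0.339 to 0.389), a ratio of 1.45. At 101 to 200 bp from the nearest gene the values were 0.411 (0.366 to 0.459) in close pairs and 0.254 (0.234 to 0.276) in wider gaps, a ratio of 1.62. In both bands the intervals, which cover counting error only, did not overlap. The same held in each replicate list alone, with ratios of 1.79 and 1.73 in replicate 1 and 1.36 and 1.51 in replicate 2. At 201 to 300 bp the shared density was 0.178 in close pairs and 0.151 in wider gaps, and at 401 to 500 bp it was 0.116 and 0.123, with intervals that overlapped in these and in the band between. In each replicate list alone the band of 201 to 300 bp was also denser in close pairs, with 0.393 against 0.305 in replicate 1 and 0.303 against 0.224 in replicate 2 and no overlap of intervals. A place in a close pair has 2 genes within reach and a place in a wider gap has 1 as a rule, and which of these lie with their starts towards the gap was not known.

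**Figure D3:**
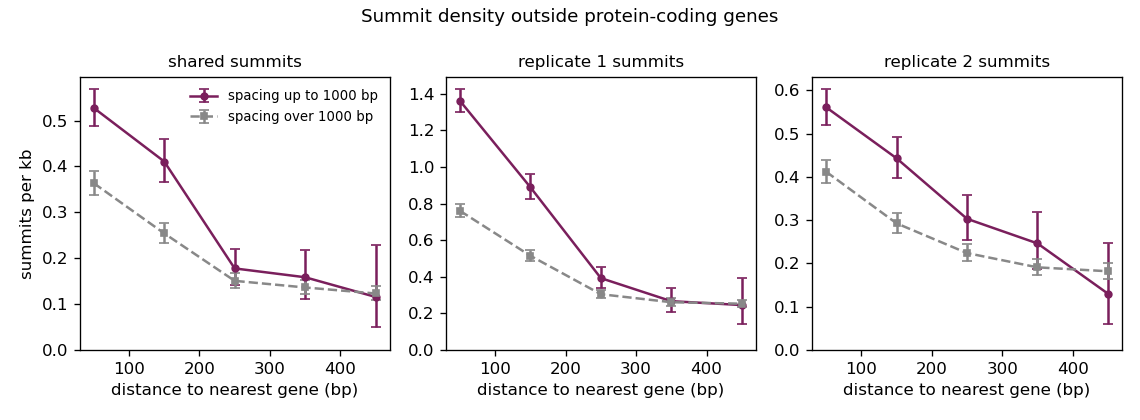
Summits per kb of DNA outside protein-coding genes (vertical axis, own scale in each panel) by distance to the nearest gene in bp (horizontal axis), for positions within 500 bp of both genes in gaps of up to 1000 bp and for gaps of over 1000 bp; bars are exact 95% Poisson intervals. Close pairs lie above wider gaps in the first 2 bands in all 3 panels, with 0.527 against 0.363 and 0.411 against 0.254 for shared summits.

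Within the gap, summits occurred in every part, somewhat more often in the middle. Gaps of 201 to 500 bp were used, which held 605 members. In gaps of over 500 bp the rule itself keeps summits towards the middle, and gaps of up to 200 bp, where every place also meets the rule, were left out of this count. The middle part of 5 equal parts held 23.8% of replicate 1 summits (20.6 to 27.4), and the outer parts held 18.7% (15.8 to 22.0) at the lower coordinate and 17.7% (14.9 to 20.9) at the higher. Of the matching replicate 2 summits, 485 lay in the same gap, with 23.9% (20.3 to 27.9) in the middle part and 15.1% (12.1 to 18.5) and 14.6% (11.8 to 18.1) in the outer ones. Equal shares would be 20% each, which lay outside the interval of the middle part in replicate 1, and outside those of the middle, the fourth and both outer parts in replicate 2, whose summits were counted only where they stayed in the gap. The median distance of a replicate 1 summit to the nearer gene was 78 bp over all members.

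**Figure D4:**
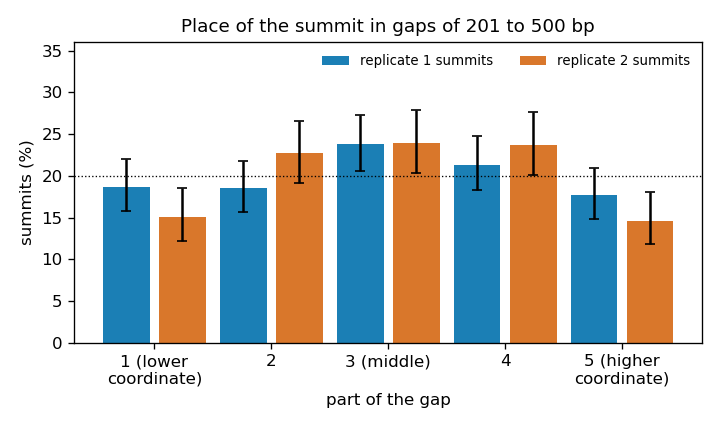
Share of summits in each of 5 equal parts of gaps 201 to 500 bp long (vertical axis, percent), from the lower to the higher coordinate, for 605 replicate 1 summits and the 485 replicate 2 summits in the same gaps; bars are 95% Wilson intervals and the dotted line is an equal share of 20%. The middle part holds 23.8% and 23.9%, and the outer parts hold 14.6% to 18.7%.

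The replicates placed the summit in the same gap for 841 of 1119 members (75.2%, 72.5 to 77.6), and the replicate 2 summit met the full rule for 791. Summits lay a median of 62 bp apart. In gaps of up to 200 bp the same gap was hit in 148 of 281 cases (52.7%, 46.8 to 58.4), and in longer gaps in 693 of 838 (82.7%, 80.0 to 85.1). The other 278 replicate 2 summits all lay inside a neighbouring gene, a median of 59 bp from the gap. For gaps this short, whether a summit counts as between genes or in one of them rests on distances of the order of the spread between replicates.

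Replicate 1 peaks usually ran into both genes, while most replicate 2 peaks did not. The median gap of members was 317 bp, while the median peak was 652 bp wide in replicate 1 and 291 bp in replicate 2. In replicate 1, 825 members (73.7%, 71.1 to 76.2) ran into both genes, with a median of 279 bp in the gene they entered further and 143 bp in the other. In replicate 2, 258 (23.1%, 20.7 to 25.6) did; the replicate 2 peak was the wider one for 26 members.

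**Figure D5:**
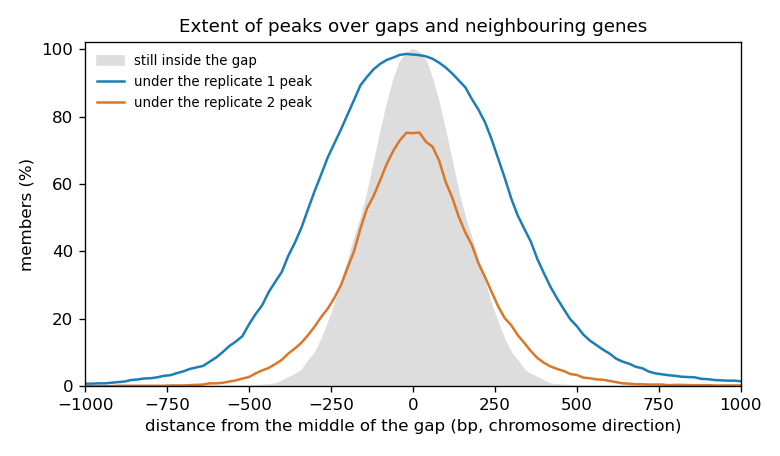
Percent of the 1119 members (vertical axis) whose replicate 1 or replicate 2 peak covers a position, by distance from the middle of the gap in bp (horizontal axis); the grey area is the percent of gaps that still include that position. At 300 bp on either side, 57.8% and 55.7% of replicate 1 peaks and 17.6% and 18.1% of replicate 2 peaks still cover the position.

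Some gaps hold a short RNA gene as well. The summits of 33 members (2.95%, 2.11 to 4.11) lay inside an annotated gene other than a protein-coding one, close to the 2.71% of the positions within reach that such genes cover. Transfer RNA genes, whose products carry amino acids to the ribosome, held the summits of 16 members (1.43%, 0.882 to 2.31) and cover 0.426% of those positions. Of 167 transfer RNA genes in gaps of close pairs, 16 held a member summit (9.58%). Long non-coding RNA genes held 11 of the summits, most of them in genes that reach beyond the gap. The share of positions that those cover was not counted. Of 67 long non-coding RNA genes wholly within gaps of close pairs, 2 held a member summit (2.99%, 0.822 to 10.2).

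Genes beside members had a somewhat greater median length than genes of the other close pairs, 2312 bp against 2103 bp, given without an interval. A gene was counted for each gap it faced, so the same gene can enter both sets, and these were not matched for spacing. A shared summit inside the gene was found in 256 of the 2181 flanking genes (11.7%, 10.5 to 13.2), against 2655 of 16806 other genes of close pairs (15.8%, 15.3 to 16.4). A peak counted as a member has its summit in the gap by rule, and the part of this choice in the lower share was not tested. By chromosome, the share of close pairs with a member ran from 6.996% (5.92 to 8.25) on chromosome 2 to 10.1% (8.99 to 11.3) on chromosome 3.

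Few genes of the immune signalling lists flanked a member, too few to set their shares apart from, or equal to, those of other genes. Of all protein-coding genes 7.95% flanked a member, and of those that face a close pair 11.5%. In the list of jasmonate and ethylene signalling 2 of 27 matched genes did (7.41%, 2.06 to 23.4), or 16.7% (4.70 to 44.8) of the 12 in close pairs. EIN3 (AT3G20770), the main transcription factor of ethylene responses, shared a gap of 574 bp with AT3G20760, and the peak on chromosome 3 from 7259636 to 7260720 had 2.39 and 2.43. JAZ12 (AT5G20900), a repressor of jasmonate responses, had 1.97 and 1.73 on chromosome 5 from 7089993 to 7090786. In the list of pattern-triggered immunity and salicylic acid 2 of 34 did (5.88%, 1.63 to 19.1), or 8.33% (2.32 to 25.8) of the 24 in close pairs. TGA5 (AT5G06960), a transcription factor that works with salicylic acid receptors, had 2.05 and 2.04 on chromosome 5 from 2157465 to 2158362. SAG101 (AT5G14930), a partner of the immune regulator EDS1, is 114 bp from GASA14 (AT5G14920), and the peak between them on chromosome 5 from 4827957 to 4828947 had 2.90 in replicate 1 but 1.59 in replicate 2, with the summit 1 bp outside GASA14.

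Genes of the photosynthetic apparatus had a higher share, on small numbers. Of 44 nuclear genes for photosystem and antenna proteins, 8 flanked a member (18.2%, 9.51 to 32.0), and of the 30 that face a close pair 26.7% did (14.2 to 44.4), against 11.5% of all genes in close pairs. An excess of peaks at photosynthesis genes was known from these lists before, so this is no independent result. The best were PSAF (AT1G31330), a photosystem I subunit next to LBD4, with 1.99 and 2.38 on chromosome 1 from 11214265 to 11214866, and PSAN (AT5G64040), another such subunit, with 1.94 and 1.98 on chromosome 5 from 25629446 to 25630006. The antenna protein gene LHCB4.3 (AT2G40100) had 2.498 and 1.59, LHCB4.1 (AT5G01530) had 1.91 and 1.65, and the remaining PSAL, LHCB4.2, PSAO and LHCA1 had 1.46 to 1.64 in replicate 1 and 1.55 to 2.02 in replicate 2. Above the median of all members lay LHCB4.3 alone in replicate 1, and PSAF and PSAO in replicate 2. At PSAF the replicate 1 summit was nearer the other gene of the pair, 69 bp from PSAF and 40 bp from LBD4. The same held at LHCB4.2 (155 and 36 bp), PSAO (107 and 31 bp) and LHCA1 (134 and 47 bp). At PSAN, LHCB4.1, LHCB4.3 and PSAL the summit was nearer the photosynthesis gene.

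Of 37 matched chromatin genes 5 flanked a member (13.5%, 5.91 to 28.0), or 17.9% (7.88 to 35.6) of the 28 in close pairs, and both intervals hold the shares of all genes, 7.95% and 11.5%. VRN2 (AT4G16845), a Polycomb subunit that keeps flowering repressor genes silent after cold, had 2.69 and 2.31 on chromosome 4 from 9475371 to 9476305, with the summit 5 bp outside the gene. ATX2 (AT1G05830), a histone methyltransferase, had 2.26 and 2.17 on chromosome 1 from 1761784 to 1762413. The others were MSI4 (AT2G19520, 2.00 and 2.22), the chromatin remodeller gene DDM1 (AT5G66750, 2.21 and 1.89) and DEK3 (AT4G26630, 2.06 and 1.75). Their summits were nearer the other gene of the pair. They lay 285 bp from MSI4 and 20 bp from AT2G19530, 323 bp from DDM1 and 93 bp from SDH1-1. For DEK3 the distances were 189 bp, and 167 bp to AT4G26620. The ATX2 summit lay 77 bp from ATX2 and 159 bp from AT1G05835. No pair had both genes in 1 list.

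Peaks at the edges of the rule had folds within the range of the others. Just inside the distance of 500 bp stood the peak between RER1 (AT5G22790) and AT5G22791, with summit distances of 478 and 500 bp and folds of 2.27 and 3.65, and that between AT4G16460 and AT4G16470, with 500 and 226 bp and folds of 2.12 and 2.55. Just outside, at 501 bp, stood the peaks between AT2G21120 and AT2G21130 (2.98 and 2.24) and between AT3G17720 and NAC057 (2.74 and 1.82). Just inside the overlap of 50% were the peaks between GLP10 and ROC4 (51.2%, folds of 1.85 and 1.58) and between CLPP4 and RPA70C (51.3%, 2.43 and 1.71). Just outside were replicate 1 peaks between ECA3 and AT1G10140 (46.9%, 2.14) and between AT5G24970 and AT5G24980 (46.4%, 1.44). The replicate 2 peak lay wholly inside the replicate 1 peak, or the reverse, for 973 members (87.0%). The narrowest gap with a member was the 12 bp between AT1G10040 and AT1G10050 (2.40 and 1.80), and the widest the 984 bp between the protease gene DEG12 (AT3G16550) and AT3G16555 (2.37 and 2.80). Of the 2693 replicate 1 summits between close genes, 41.6% (39.7 to 43.4) belonged to shared peaks, against 42.0% of all replicate 1 peaks (41.4 to 42.6), with intervals that overlap.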

How the data were processed

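Peaks of 2 DEK2-YFP immunoprecipitates were read as narrowPeak files without a header. Per the submitters' processing notes the tools were MACS2 2.2.7.1, SAMtools 1.9, Bowtie2 2.3.5 and Trimmomatic 0.38 with the build TAIR10; roles, settings, the control and the treatment of duplicates are not given in the sources used here. The deposited score is 10 times the −log10 q, cut to a whole number; the deposited fold enrichment is a ratio at the summit; the deposited p-value and q-value columns hold −log10 values.

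Gene names and spans came from a RefSeq table of TAIR10.1 without strand, so the planned results by orientation and the planned motif search were not made. Shifting shared summits by multiples of 50 bp put the fewest inside genes at a shift of 0 bp (41.2%). The shares at −50 and 50 bp were nearly the same (41.6% and 41.5%), so this check cannot tell a shift of 0 from 50 bp. Distances of a few bp rest on the coordinates of peaks and genes being the same, which was not checked more finely. Overlapping genes were merged, and distances are counted from the gene's first base outside. Pileup and background were solved from fold and p-value under MACS2's formulas; replicate 2 pileups came out whole within 0.02 in 100% of members. Depth is otherwise unknown. With 2 samples of 1 group there is no test between groups, so shares have 95% Wilson intervals and densities exact Poisson intervals, which cover counting error only.

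Named pairs are the best 12 by the worse rank of fold enrichment, those at the edges of the rule, the narrowest and widest gap, and the best members of 4 gene lists; any further gene was picked with its values known. The members and lists were chosen with earlier results of these data known; the count of summits up to 250 bp into genes and the comparison with wider gaps were added after the data were seen. The rule was tested on simulated data, where it found all 88 of 88 members placed by brute force among 3000 peaks. Alternatives changed the overlap, the threshold, the distance, the summit, the replicate and the genes. Python 3.11.15 with numpy 2.4.6, pandas 2.3.3, scipy 1.17.1 and matplotlib 3.10.9 was used.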

Additional observations from a re-analysis of the deposited data

How the results depend on the processing

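The number of members held within 1.5 times with any overlap of 1 bp, with the replicate 2 summit and with all annotated genes as neighbours (1135, 1163 and 1324, against 1119). It was 466 with an overlap of 50% of both peaks, 409 when both peaks needed a −log10 q of 5 or more, 620 with a distance of 250 bp and 2049 with 1000 bp; leaving out a replicate gave 1265 to 2693. As a percent of the peaks that entered the rule, these settings gave 9.44%, 11.7%, 5.73% and 19.0%, all annotated genes gave 12.2%, and leaving out a replicate gave 9.51% to 10.5%, against 10.3%. The percent of close pairs with a member was 3.66%, 3.21%, 4.87% and 12.9% in the same order, 7.16% with all annotated genes, and 9.89% to 21.1% when a replicate was left out, against 8.79%. The median fold moved by more than the spread between replicates at the stricter q (2.36 in both replicates) and, in replicate 1, when that list stood alone (1.89, against 2.18). A cut on q itself favours peaks of higher fold, so a rise at the stricter q is built into that setting. The replicate 2 list alone gave 2.01, against 1.99. The shares of divergent, tandem and convergent pairs, and the side of the summit in tandem pairs, were not run, because the gene table gives no strand. No paired analysis was possible because the 2 immunoprecipitates belong to 1 group. The lists hold 25742 peaks in replicate 1 and 13307 in replicate 2, the part of depth in this was not tested, and the intervals here cover counting error only.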

Other observations

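Some members stood next to each other along the chromosome. A member in the gap before or after was found for 136 of 1119 members (12.2%, 10.4 to 14.2), against 10.2% (9.67 to 10.8) of the other close pairs, with intervals that overlap. In 62 places 2 consecutive gaps each held a member, and in 4 places 3 did. These 4 stretches were singled out after their values had been seen. On chromosome 3 the actin gene ACT11 had a member on either side. The peak between AT3G12100, which encodes the metal transport protein MTP5, and ACT11 (from 3857209 to 3858073) had 2.51 in replicate 1 and 2.91 in replicate 2. The peak between ACT11 and FAD2 (3859690 to 3860557), an enzyme that makes polyunsaturated fatty acids, had 2.12 and 1.78, and that between FAD2 and AT3G12130 (3863467 to 3864420) had 2.42 and 2.16.

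A second stretch on chromosome 3 holds RPM1, an intracellular immune receptor gene against Pseudomonas syringae. The peak between AT3G07030 and RPM1 (2225267 to 2225790) had 1.89 and 1.92, with the summit 293 bp from RPM1. The peak before it, between SGT and AT3G07030 (2221806 to 2222688), had 2.01 and 1.96, and the peak after it, between NSN1 and emb1974 (2232220 to 2232599), had 1.69 and 2.07. The other 2 stretches run from AT3G20230 to AT3G20270 and from ZIFL1 to AGL15, a MADS-box gene. In the first of these the peaks had 2.01 and 1.67, 2.23 and 1.78, and 2.56 and 2.14, in chromosome order. In the second the peak between ZIFL1 and AT5G13760 had 1.64 and 1.67, and that between AT5G13760 and AT5G13770 had 2.92 and 2.60. The peak between AT5G13780 and AGL15 had 2.64 and 2.62.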
